A study of Mus musculus with 9 samples.

Results

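The genes described here are 34 genes of protein folding and the heat shock response: the HSP70, HSP110 and HSP90 chaperones, HSP90 co-chaperones, DNAJ proteins, 6 subunits of the TCP1 ring, the small heat shock protein Hspb1, the co-chaperone Bag3, the Hspd1 and Hspe1 pair and the heat shock factors Hsf1 and Hsf2. They were taken by name from a table of 21959 genes. The set is mainly cytosolic, but Hspa9, Hspd1 and Hspe1 encode mitochondrial chaperones and are described as such. The cells were DC2.4, an established line of mouse dendritic cells, and their RNA was sequenced in 3 groups of 3 libraries named OMVSSDC, PBSDC and ZJDC. The series' design text speaks of treating these cells with engineered extracellular vesicles, written EMV@SS, to look for changes in immune genes. The labels do not spell out what OMVSS, PBS or ZJ stand for, nor the dose, the time, or whether the replicates were separate cultures, so p-values measure only the spread between these libraries, which may be technical. All groups are the same single cell line, and PBSDC is used below as the reference.

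Chaperones of the HSP70 family bind exposed hydrophobic stretches of unfolded proteins in cycles of ATP hydrolysis that DNAJ proteins start and that HSP110 proteins help to reset by exchanging the nucleotide. Clients such as kinases and steroid receptors are passed on, by the adaptor Stip1 among others, to HSP90, whose cycle is tuned by its own co-chaperones, while actin and tubulin fold inside the TCP1 ring. Heat shock factor 1 raises many of these genes under stress by binding inverted repeats of the letters GAA, and in dendritic cells HSP70 and HSP90 proteins are also known as carriers of peptides for presentation to T cells.

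The promoters are shown first, to describe which members carry this repeat. RefSeq promoters on GRCm38.p6, running from 250 bases before to 50 bases after a start site, were found for 28 of the 34 members, 38 promoters in all, and none for Hsp90aa1, Hsp90ab1, Hspa8, Hspa9, Hsf1 and Cct4. The motif of 3 units, GAANNTTCNNGAA or in its other phase TTCNNGAANNTTC, searched so that both strands are read and overlapping matches count, was present in 7 of the 38 member promoters (18.4%) and in 198 of all 32851 promoters of the table (0.603%). The 5 genes with it were Hsph1, Chordc1, Dnajb6, Hspd1 and Hspe1. Hsph1 and Dnajb6 each entered with overlapping promoters that hold the same match. Per gene, the motif was in 17.9% of members and 0.662% of all genes. The members were picked as chaperone and heat shock genes, so the higher share is a description and not a test. The shorter motif of 2 units, GAANNTTC or TTCNNGAA, was in 44.7% of member promoters against 15.1% of all promoters, and no TCP1 ring promoter of the table held the motif of 3 units. A match is a description of letters and not a binding site. The sequences below run 5′ to 3′ on the gene's strand, with the motif in capitals; Hsph1 (chr5:149636266-149636565, minus strand), Chordc1 (chr9:18292017-18292316, plus strand), Dnajb6 (chr5:29735648-29735947, plus strand) and Hspd1 (chr1:55087883-55088182, minus strand) hold 3 units, Hspa1b (chr17:34959189-34959488, minus strand) holds 2 units, and Hspa4l (chr3:40745363-40745662, plus strand), the tested member with the largest rise, holds neither.
Hsph1: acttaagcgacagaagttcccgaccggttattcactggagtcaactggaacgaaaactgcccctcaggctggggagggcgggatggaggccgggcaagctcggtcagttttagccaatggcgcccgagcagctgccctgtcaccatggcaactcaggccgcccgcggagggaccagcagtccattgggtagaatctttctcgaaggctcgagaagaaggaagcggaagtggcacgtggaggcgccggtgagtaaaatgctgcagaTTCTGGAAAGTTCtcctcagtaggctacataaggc
Chordc1: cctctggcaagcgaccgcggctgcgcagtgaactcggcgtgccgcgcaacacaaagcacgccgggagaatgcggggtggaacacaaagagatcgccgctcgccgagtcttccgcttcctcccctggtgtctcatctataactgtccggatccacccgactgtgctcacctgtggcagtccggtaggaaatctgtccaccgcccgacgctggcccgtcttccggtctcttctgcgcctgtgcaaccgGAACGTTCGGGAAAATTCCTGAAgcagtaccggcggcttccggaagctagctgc
Dnajb6: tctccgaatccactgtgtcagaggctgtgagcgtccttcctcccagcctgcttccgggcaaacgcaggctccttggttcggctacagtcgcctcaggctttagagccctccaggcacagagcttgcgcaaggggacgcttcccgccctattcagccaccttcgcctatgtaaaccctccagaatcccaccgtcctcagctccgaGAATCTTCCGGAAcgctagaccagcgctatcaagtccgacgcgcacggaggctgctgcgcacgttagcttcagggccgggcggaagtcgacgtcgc
Hspd1: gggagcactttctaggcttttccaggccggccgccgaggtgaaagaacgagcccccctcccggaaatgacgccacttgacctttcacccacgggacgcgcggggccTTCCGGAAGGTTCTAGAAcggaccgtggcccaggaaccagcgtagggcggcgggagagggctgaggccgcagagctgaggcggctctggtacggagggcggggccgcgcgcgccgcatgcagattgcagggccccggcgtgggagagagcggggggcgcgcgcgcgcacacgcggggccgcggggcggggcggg
Hspa1b: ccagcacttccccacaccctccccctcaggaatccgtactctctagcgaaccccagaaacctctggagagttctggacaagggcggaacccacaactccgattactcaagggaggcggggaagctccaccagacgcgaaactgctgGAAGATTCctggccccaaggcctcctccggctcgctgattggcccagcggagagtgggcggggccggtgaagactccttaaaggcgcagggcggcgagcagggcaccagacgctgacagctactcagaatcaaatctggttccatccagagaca
Hspa4l: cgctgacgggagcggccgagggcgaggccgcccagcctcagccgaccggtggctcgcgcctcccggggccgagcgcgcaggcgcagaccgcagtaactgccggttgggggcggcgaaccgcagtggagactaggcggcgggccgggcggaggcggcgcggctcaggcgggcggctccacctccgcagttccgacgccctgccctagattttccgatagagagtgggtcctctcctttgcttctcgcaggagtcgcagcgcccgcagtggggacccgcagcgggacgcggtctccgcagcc

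The Hspd1 and Hspe1 windows face in opposite directions and share 285 bases, so the capitals in the Hspd1 line are also the match of Hspe1, read on the other strand. In Chordc1 the first of the 3 overlapping matches begins 4 bases before the start site and the others 1 and 6 bases after it. In Hsph1 the match begins 15 bases after the start site. The promoters of the neighbouring genes Hspa1a and Hspa1b differed at 4 of 300 bases. Among the 5 genes with 3 units, Hsph1, Chordc1, Hspd1 and Hspe1 were lower in OMVSSDC and ZJDC than in PBSDC, as given below. Dnajb6 did not pass the test in either comparison over all 9 libraries, with the exceptions given below. Among all 31 tested members, 22 were lower in OMVSSDC and 23 in ZJDC, beside 30.2% and 27.1% of all tested genes. These totals are not split by motif, and 6 members had no promoter to search. Stip1, Fkbp4, Cct3, Hspa4 and Ahsa1 were lower in both and did not hold 3 units. A link between the motif and the changes was not tested.

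The libraries held 12784931 to 18388959 counts and 13858 to 14362 genes with at least 1 count. Before any result, OMVSSDC replicates 1 and 2 stood apart from replicate 3: a chi-square of gene counts, divided by its degrees of freedom, was 1.87 for replicates 1 and 2 but 59.3 and 61.8 against replicate 3, compared with 2.76 to 3.83 within PBSDC and 2.51 to 8.59 within ZJDC. Against the ZJDC libraries OMVSSDC replicate 3 gave only 7.43 to 10.2. In OMVSSDC, transcripts of the mitochondrial genome were 1.81% and 1.86% of counts for replicates 1 and 2 and 4.44% for replicate 3, against 4.60% to 5.72% in ZJDC and 6.89% to 7.84% in PBSDC. Genes of the cytoplasmic ribosome were at 4.10% and 4.01% for OMVSSDC replicates 1 and 2 and at 2.57% to 2.97% for the other 7 libraries. The summed level of 10 myeloid and dendritic markers, 9 of which had counts, was 2514 to 2562 CPM (counts scaled to library size) in OMVSSDC, 2813 to 2912 in PBSDC and 2432 to 2462 in ZJDC. The sums hide opposite moves of single markers. Csf1r, Itgam and Spi1 were lower in every OMVSSDC and ZJDC library than in PBSDC, while Ptprc, Cd86, Cd40, Itgax and Zbtb46 were higher. Csf1r was at 1044 to 1122 CPM in PBSDC and 527 to 628 in OMVSSDC, and Cd86 at 129 to 139 and 323 to 334. Epithelial and lymphoid marker sums stayed at or below 0.614 CPM in every library, with Krt19, Cd3e, Cd3g and Ncr1 at 0, and 5 fibroblast and endothelial markers, 4 of which had counts, summed to 4.91 to 17.1 CPM in OMVSSDC, 22.6 to 25.6 in PBSDC and 9.08 to 13.5 in ZJDC. Granulocyte and erythroid markers summed to at most 8.36 CPM. The part of these library features in the results below was not tested. The counts of calls, the medians and the members that changed most are given below also with OMVSSDC replicates 1 and 2 alone. The medians and the members that changed most are given also with replicate 3 alone. That fit holds 1 OMVSSDC library and assumes that it varies like the other groups, so sizes and no p-values are given for it.

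Most of these genes were lower in both OMVSSDC and ZJDC than in PBSDC. All 34 together took 1.58% ± 0.00732 of counts in PBSDC, 1.21% ± 0.0211 in ZJDC and 1.03% ± 0.0289 in OMVSSDC (SD, n = 3), and the 3 groups did not overlap. HSP90 made up the widest gap, with 0.572% ± 0.00408 of counts in PBSDC, 0.391% ± 0.0125 in ZJDC and 0.291% ± 0.0359 in OMVSSDC. The 6 DNAJ genes took nearly the same share everywhere, 0.0747% ± 0.00132 in PBSDC, 0.0747% ± 0.000802 in ZJDC and 0.0725% ± 0.00174 in OMVSSDC. In bulk RNA, fewer cells that express a gene and less of its RNA per cell cannot be told apart.

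**Figure D1:**
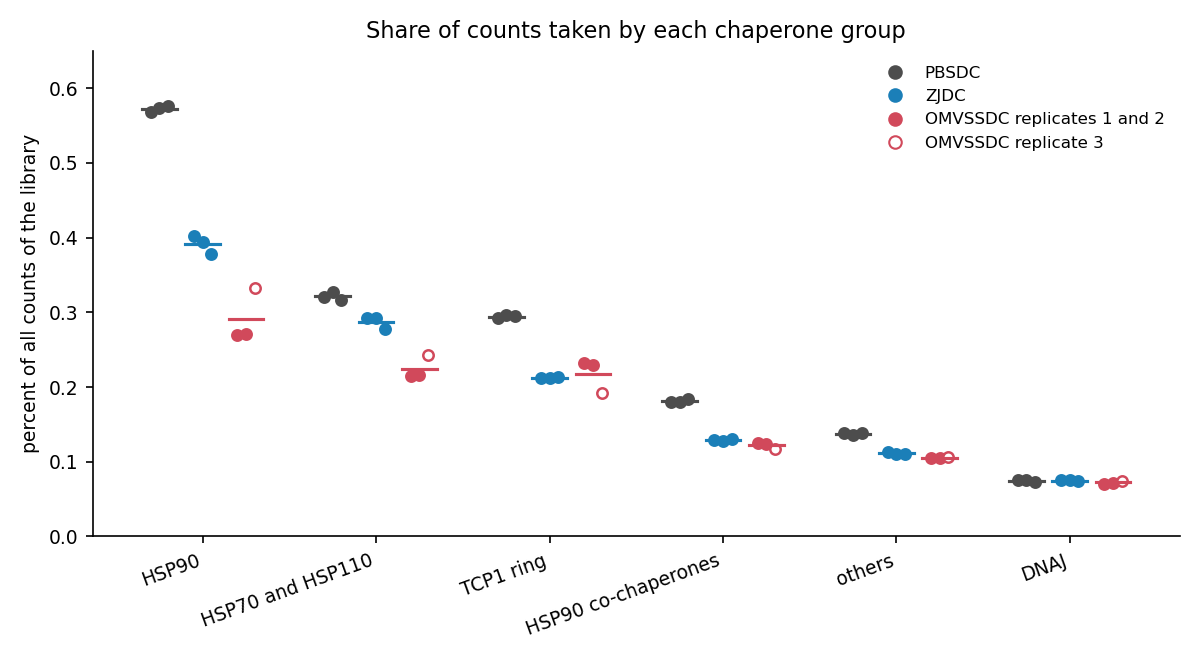
Percent of all counts of a library (vertical axis) taken by each chaperone group (horizontal axis) in PBSDC, ZJDC and OMVSSDC; points are libraries, bars are means, and OMVSSDC replicate 3 is the open point. PBSDC is highest for every group but DNAJ, and OMVSSDC replicate 3 lies nearer to ZJDC than replicates 1 and 2 do for HSP90.

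A total of 31 members had enough counts to be tested with edgeR's quasi-likelihood method among 11568 genes; Hspa1a, Hspa1b and Hspb1 did not. In OMVSSDC against PBSDC, 22 of the 31 were lower and 3 higher at an adjusted p under 0.05, where 30.2% of all tested genes were lower, 33.4% higher and 63.6% changed in either direction. The members' median log2 fold change was -0.54, beside 0.05 over all tested genes. In ZJDC against PBSDC 23 were lower and 3 higher, against 27.1% lower, 27.6% higher and 54.7% in either direction over all genes, and the members' median was -0.40 beside 0.01. The comparisons share the PBSDC libraries: 21 members were lower and 3 higher in both, and each comparison's own values are given side by side below. Without OMVSSDC replicate 3 the counts for OMVSSDC were 24 lower and 5 higher, where 36% of all tested genes were lower and 39% higher. For ZJDC they were then 24 lower and 6 higher, beside 34.9% and 35.2%. Without PBSDC replicate 3 the OMVSSDC counts were 22 lower and 5 higher, beside 27% and 29.5%. In both settings Hspa1b and Hspb1 entered the test, because a group of 2 libraries needs fewer libraries with counts. Both genes are among the 5 higher in OMVSSDC, and Hspa1b is among the 6 in ZJDC. These counts are therefore not over the same 31 members. The members' median in OMVSSDC was -0.52 without replicate 3, with these genes included, and -0.57 with replicate 3 alone. The libraries of the groups did not overlap, with PBSDC above, for 22 members in OMVSSDC (31.8% of all tested genes) and 24 in ZJDC (36%), and with PBSDC below for 3 (33.9%) and 5 (36.2%). The 3 members higher in both were Hspa4l, Hspa9 and Dnajb4.

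Sizes were modest for most members. Under the same threshold, 5 members were more than 2-fold lower in OMVSSDC than in PBSDC, where 6.87% of all tested genes were, and 0 in ZJDC, where 3.89% were. The 5 were Hsp90aa1, Stip1, Hsp90ab1, Hspa8 and Hsph1. With replicate 3 as the only OMVSSDC library none of these 5 was past 2-fold, with log2 fold changes of -0.96, -0.73, -0.83, -0.85 and -0.93 in that order, and the 3 members past it were Cct3 (-1.13), Ahsa1 (-1.10) and Fkbp4 (-1.04). Without replicate 3 the 5 were at -1.23, -1.35, -1.24, -1.22 and -1.09, and Hspa4 at -1.07 joined them. Only Hspa4l was more than 2-fold higher, in both comparisons, beside 12.9% of all genes in OMVSSDC and 9.18% in ZJDC.

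**Figure D2:**
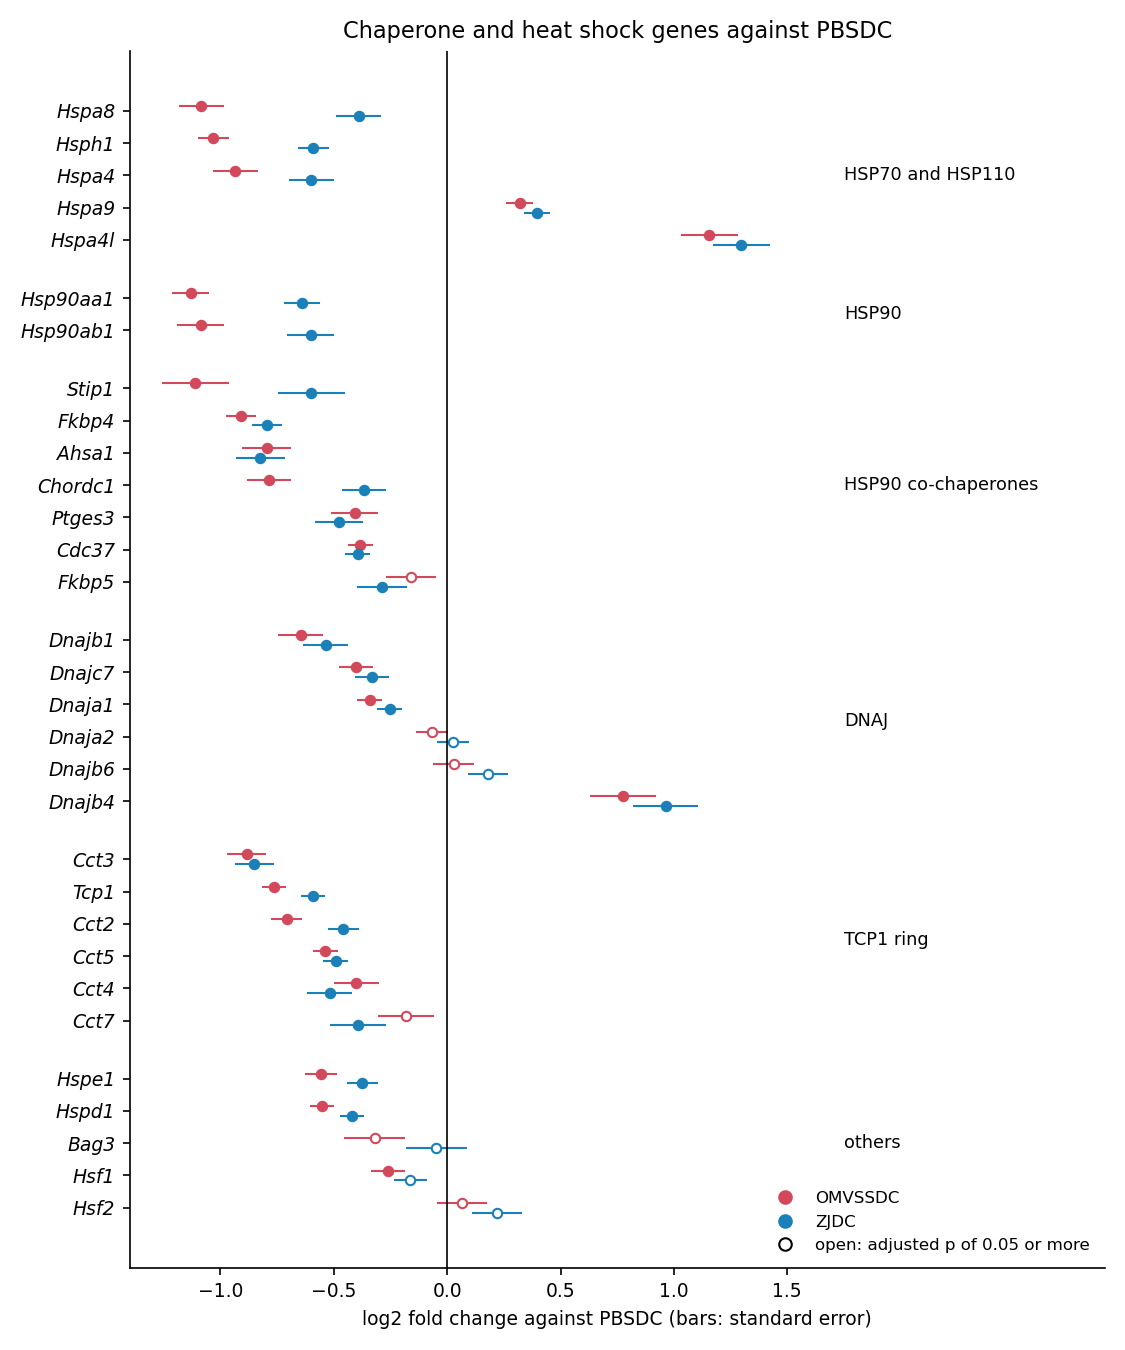
The log2 fold change against PBSDC (horizontal axis, bars are standard errors) of the 31 tested members, grouped by role on the vertical axis, for OMVSSDC and ZJDC; open points have an adjusted p of 0.05 or more. Hsp90aa1 lies lowest at -1.13 in OMVSSDC and Hspa4l highest at 1.16 and 1.30.

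Of the 5 tested HSP70 and HSP110 genes, 3 fell and 2 rose in each comparison with PBSDC. Their median log2 fold change was -0.93 in OMVSSDC and -0.39 in ZJDC. With OMVSSDC replicate 3 alone the OMVSSDC median was -0.70. Without replicate 3 it was -0.39, but over a set that also held Hspa1b, at 3.54, so it does not compare with -0.93. The 3 genes that fell were then at -1.22 for Hspa8, -1.07 for Hspa4 and -1.09 for Hsph1, and the 2 that rose stayed above 0. Hspa8, the constitutive HSP70 of the cytosol that also uncoats clathrin vesicles, was at 1858, 1966 and 1865 CPM in the PBSDC libraries, 1508, 1472 and 1361 in ZJDC and 826, 804 and 1053 in OMVSSDC. The 3 groups did not overlap, and OMVSSDC replicate 3 was the highest of its group. The log2 fold change was -1.08 ± 0.10 (SE) in OMVSSDC (adjusted p = 7.08e-06) and -0.39 ± 0.10 in ZJDC (adjusted p = 0.00683).

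The HSP110 proteins exchange nucleotide on HSP70. Hspa4 was at 667, 630 and 642 CPM in PBSDC, 436, 439 and 406 in ZJDC and 301, 316 and 399 in OMVSSDC, a log2 fold change of -0.93 ± 0.10 and -0.60 ± 0.10 against PBSDC (adjusted p = 2.04e-05 and 0.000544 for OMVSSDC and ZJDC). Hsph1 was at 157, 159 and 161 CPM in PBSDC, 108, 110 and 99.6 in ZJDC and 73.8, 76.3 and 83.8 in OMVSSDC, or -1.03 ± 0.07 and -0.59 ± 0.07 (adjusted p = 8.28e-07 and 5.16e-05). For both genes every OMVSSDC library lay below every ZJDC library. Hspa4l, the third gene of this family, went the other way: 21.9, 22.4 and 22.4 CPM in PBSDC, 55.9, 54.2 and 53.8 in ZJDC and 42.6, 44.8 and 61.3 in OMVSSDC. All 6 libraries of OMVSSDC and ZJDC were above the 3 of PBSDC, while OMVSSDC and ZJDC overlapped, and the log2 fold changes were 1.16 ± 0.13 and 1.30 ± 0.13 (adjusted p = 2.57e-05 and 1.71e-05). Per length, in FPKM (counts scaled by gene length and library total), the ratio of Hspa4 to Hspa4l was 60.5 ± 2.53 in PBSDC, 16.2 ± 0.574 in ZJDC and 14.3 ± 0.654 in OMVSSDC (SD, n = 3).

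Hspa9, the HSP70 of the mitochondrial matrix, was at 654, 649 and 605 CPM in PBSDC, 851, 846 and 816 in ZJDC and 777, 779 and 825 in OMVSSDC. The PBSDC libraries were lowest, and OMVSSDC and ZJDC overlapped. Its level rose by 0.32 ± 0.06 on the log2 scale in OMVSSDC (adjusted p = 0.000781) and by 0.40 ± 0.06 in ZJDC (adjusted p = 0.000246). The FPKM ratio of Hspa9 to Hspa8 was 0.335 ± 0.0144 in PBSDC, 0.579 ± 0.0180 in ZJDC and 0.896 ± 0.0995 in OMVSSDC, and the highest single library, OMVSSDC replicate 2, reached 0.967.

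The stress-inducible HSP70 genes had very few counts in every library. Hspa1a had 1 count in PBSDC replicate 1, 1 in ZJDC replicate 1 and 0 in the other 7 libraries; a count of 0 allows up to 3 counts, 0.163 to 0.235 CPM across libraries, for counting error only. Hspa1b had 0, 0 and 2 counts in PBSDC, 9, 8 and 11 in ZJDC and 9, 10 and 5 in OMVSSDC. Every library of OMVSSDC and ZJDC was above those of PBSDC, and the ratio of summed counts to PBSDC, scaled by library totals, was 12.8 in OMVSSDC (95% exact interval 3.17 to 111) and 13.5 in ZJDC (3.40 to 117), from 24, 28 and 2 counts in OMVSSDC, ZJDC and PBSDC. These intervals cover counting error only, and reads are not independent molecules. Both PBSDC counts were in replicate 3, and without it PBSDC was at 0. Set against a floor of 3 counts over that group, the ratio was then 5.93 in OMVSSDC and 6.27 in ZJDC. It takes the 24 and 28 counts as exact and so is not a lower limit. The lower limits are those of the intervals over all libraries. The longest coding transcripts of the pair are 88.5% identical over 2844 aligned bases, and 47.1% of 100-base windows of Hspa1a occur in Hspa1b, so reads from one can be lost or moved to the other in a way that the sources used here do not state.

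**Figure D3:**
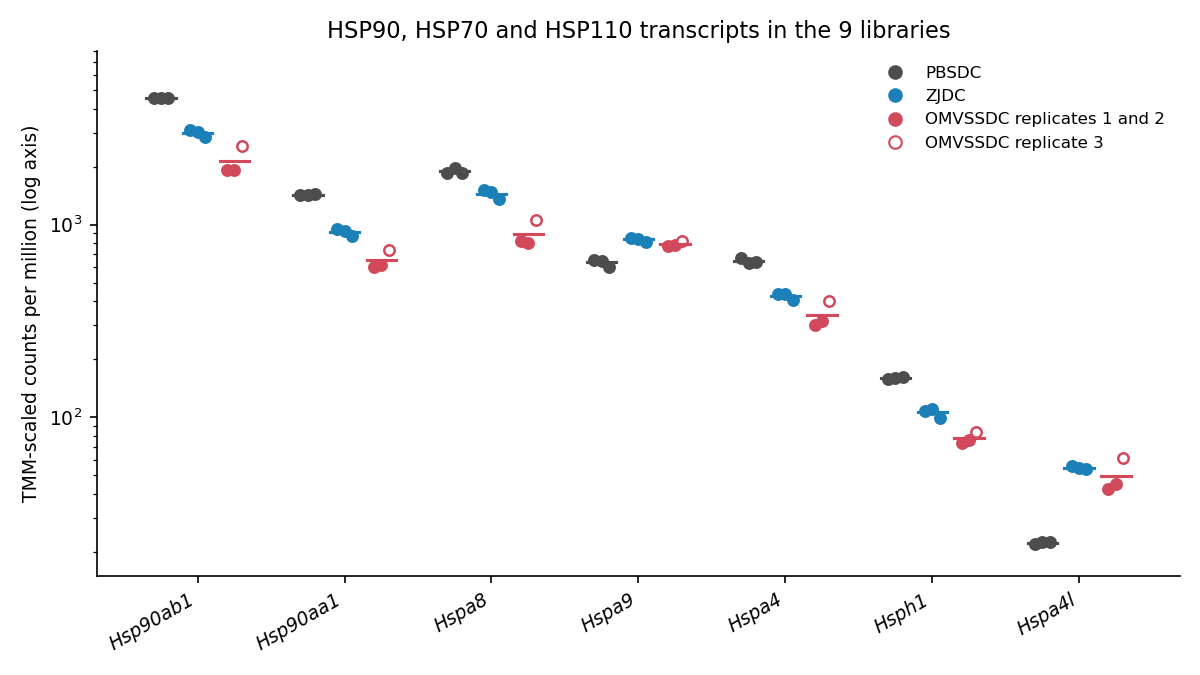
TMM-scaled CPM (vertical log axis) of the HSP90, HSP70 and HSP110 genes (horizontal axis) in PBSDC, ZJDC and OMVSSDC; points are libraries, bars are means, and OMVSSDC replicate 3 is the open point. PBSDC is highest for 5 genes and lowest for Hspa9 and Hspa4l, with Hsp90ab1 at 4523 to 4571 in PBSDC and 1923 to 2573 in OMVSSDC.

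Both HSP90 genes fell in both comparisons, and their median log2 fold change in OMVSSDC was -1.23 without replicate 3 and -0.90 with replicate 3 alone. Hsp90ab1, the constitutive HSP90, had the highest FPKM of all 34 members in every group, with means of 1451.5 ± 11.3 in PBSDC, 999.8 ± 31.5 in ZJDC and 743 ± 102 in OMVSSDC (SD, n = 3). Its CPM were 4523, 4571 and 4565 in PBSDC, 3114, 3025 and 2858 in ZJDC and 1932, 1923 and 2573 in OMVSSDC. The groups did not overlap, with log2 fold changes of -1.09 ± 0.10 in OMVSSDC (adjusted p = 9.78e-06) and -0.60 ± 0.10 in ZJDC (adjusted p = 0.000706).

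Hsp90aa1, the form that responds more to stress, was at 1426, 1422 and 1441 CPM in PBSDC, 954, 923 and 871 in ZJDC and 603, 619 and 737 in OMVSSDC. Again the order was PBSDC, ZJDC, OMVSSDC with no overlap. The log2 fold changes were -1.13 ± 0.08 and -0.64 ± 0.08 (adjusted p = 1.22e-06 and 8.25e-05). The FPKM ratio of Hsp90ab1 to Hsp90aa1 varied only from 4.07 to 4.58 over the 9 libraries.

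All 7 HSP90 co-chaperones were lower in ZJDC than in PBSDC and 6 of 7 in OMVSSDC, with median log2 fold changes of -0.48 and -0.79, the latter being -0.67 without OMVSSDC replicate 3 and -0.69 with it alone. Stip1, which bridges HSP70 and HSP90, was at 415, 398 and 417 CPM in PBSDC, 287, 273 and 252 in ZJDC and 160, 162 and 247 in OMVSSDC. OMVSSDC replicate 3 was just below the lowest ZJDC library, far above the other OMVSSDC libraries. The log2 fold changes were -1.11 ± 0.15 (adjusted p = 0.000100) in OMVSSDC and -0.60 ± 0.15 (adjusted p = 0.00597) in ZJDC.

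Chordc1, a zinc-binding HSP90 partner, followed the same order, with 215, 216 and 222 CPM in PBSDC, 171, 169 and 168 in ZJDC and 111, 119 and 149 in OMVSSDC (log2 fold changes -0.79 ± 0.10 and -0.37 ± 0.10, adjusted p = 6.03e-05 and 0.00909). Fkbp4, a peptidyl-prolyl isomerase of steroid receptor complexes, fell by a like amount in both, with 447, 462 and 478 CPM in PBSDC, 272, 266 and 262 in ZJDC and 259, 253 and 226 in OMVSSDC (-0.91 ± 0.07 and -0.79 ± 0.07, adjusted p = 1.50e-06 and 5.72e-06). Ahsa1, which stimulates the HSP90 ATPase, was at 139, 136 and 129 CPM in PBSDC, 72.7, 75.9 and 79.2 in ZJDC and 87.5, 81.9 and 63.0 in OMVSSDC (-0.80 ± 0.11 and -0.82 ± 0.11, adjusted p = 0.000109 and 0.000117). For Ahsa1 the OMVSSDC libraries lay on both sides of ZJDC.

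Cdc37, the adaptor for kinases, fell by 0.38 ± 0.05 on the log2 scale in OMVSSDC and 0.40 ± 0.05 in ZJDC (adjusted p = 0.000144 and 0.000158), and the p23 gene Ptges3 by 0.41 ± 0.10 and 0.48 ± 0.10 (adjusted p = 0.00608 and 0.00309). Fkbp5, a glucocorticoid-responsive isomerase, was at 124, 115 and 122 CPM in PBSDC, 98.7, 95.0 and 102 in ZJDC and 122, 114 and 86.9 in OMVSSDC. OMVSSDC replicates 1 and 2 lay at the PBSDC level and replicate 3 below ZJDC, and the test gave -0.16 ± 0.11 in OMVSSDC (adjusted p = 0.232) and -0.29 ± 0.11 in ZJDC (adjusted p = 0.0473). With replicate 3 as the only OMVSSDC library, the log2 fold change of Fkbp5 in OMVSSDC was -0.47. The ZJDC call for Fkbp5 was lost without any one of 7 libraries: OMVSSDC replicate 2 (adjusted p = 0.0512), PBSDC replicates 1, 2 and 3 (0.124, 0.0671 and 0.111) or ZJDC replicates 1, 2 and 3 (0.103, 0.134 and 0.0779).

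Of the 6 DNAJ genes, 3 fell, 1 rose and 2 did not pass in each comparison, with median log2 fold changes of -0.20 in OMVSSDC (-0.23 without replicate 3, -0.14 with it alone) and -0.11 in ZJDC. Dnajb1, the stress-inducible partner of HSP70, was at 45.6, 46.4 and 47.4 CPM in PBSDC, 29.3, 33.9 and 33.0 in ZJDC and 33.1, 30.1 and 25.8 in OMVSSDC. Both groups were below PBSDC and overlapped each other. It fell by 0.65 ± 0.10 on the log2 scale in OMVSSDC (adjusted p = 0.000273) and 0.54 ± 0.10 in ZJDC (adjusted p = 0.00118).

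Dnajb4, a related member of the same class, rose. It was at 4.48, 4.60 and 4.82 CPM in PBSDC, 8.74, 10.1 and 8.38 in ZJDC and 7.14, 7.43 and 9.20 in OMVSSDC, or 0.77 ± 0.15 (adjusted p = 0.000979) and 0.96 ± 0.14 (adjusted p = 0.000283). It was among the lowest of the tested members, with an FPKM of 0.505 ± 0.0198 in PBSDC (SD, n = 3). Dnaja1, a farnesylated HSP70 partner, fell by 0.34 ± 0.06 and 0.25 ± 0.06 (adjusted p = 0.000362 and 0.00304), and Dnajc7, which also binds HSP90, by 0.40 ± 0.07 and 0.33 ± 0.07 (adjusted p = 0.000857 and 0.00345). Dnaja2 had log2 fold changes of -0.07 ± 0.07 and 0.03 ± 0.07 (adjusted p = 0.431 and 0.778) and Dnajb6, which keeps aggregation-prone proteins soluble, of 0.03 ± 0.09 and 0.18 ± 0.09 (adjusted p = 0.797 and 0.112). Without OMVSSDC replicate 3, Dnaja2 passed as lower in OMVSSDC at -0.13 (adjusted p = 0.0145) and Dnajb6 passed as higher in ZJDC (adjusted p = 0.00128). Dnajb6 also passed as higher in ZJDC with only the 2 groups in the fit (0.00176) and with scaling by library size alone (0.0188). In OMVSSDC the log2 fold change of Dnajb6 was 0.21 with replicate 3 alone.

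The TCP1 ring is built of paralogous subunits, 6 of which belong to this set. All 6 were lower in ZJDC and 5 of 6 in OMVSSDC, with median log2 fold changes of -0.50 and -0.62, the latter being -0.65 without OMVSSDC replicate 3 and -0.64 with it alone. Tcp1 was at 579, 587 and 591 CPM in PBSDC, 383, 393 and 389 in ZJDC and 350, 337 and 347 in OMVSSDC, with no overlap between the groups. It fell by 0.76 ± 0.05 on the log2 scale in OMVSSDC (adjusted p = 9.07e-07) and by 0.59 ± 0.05 in ZJDC (adjusted p = 7.61e-06). Cct3 fell most among the 6, from 407, 412 and 413 CPM in PBSDC to 227, 231 and 225 in ZJDC and 239, 240 and 189 in OMVSSDC (-0.88 ± 0.09 and -0.85 ± 0.09, adjusted p = 1.23e-05 and 2.36e-05).

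Cct2 and Cct5 fell by 0.71 ± 0.07 and 0.54 ± 0.06 on the log2 scale in OMVSSDC (adjusted p = 9.63e-06 and 1.56e-05) and by 0.46 ± 0.07 and 0.49 ± 0.06 in ZJDC (adjusted p = 0.000262 and 4.17e-05). Cct4 was at 418, 407 and 417 CPM in PBSDC, 284, 285 and 299 in ZJDC and 342, 340 and 258 in OMVSSDC (-0.40 ± 0.10 in OMVSSDC and -0.52 ± 0.10 in ZJDC, adjusted p = 0.00526 and 0.00148). Among the ring members, Cct7 split the OMVSSDC libraries: 496, 490 and 338 CPM, against 492, 510 and 501 in PBSDC and 378, 374 and 392 in ZJDC. Replicates 1 and 2 lay at the PBSDC level and replicate 3 below all ZJDC libraries. The log2 fold change in OMVSSDC was -0.18 ± 0.12 (adjusted p = 0.219) over 3 libraries and -0.57 with replicate 3 alone. In ZJDC Cct7 gave -0.39 ± 0.12 (adjusted p = 0.0203), and this call was lost without PBSDC replicate 2 or 3 (adjusted p = 0.0571 and 0.0532) or ZJDC replicate 1 or 2 (0.0588 and 0.0644).

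Cct6a and Cct8, ring subunits outside the 34, fell as well. Cct6a was at 452, 457 and 455 CPM in PBSDC, 243, 245 and 234 in ZJDC and 208, 211 and 212 in OMVSSDC (-1.11 ± 0.05 and -0.92 ± 0.05, adjusted p = 1.02e-07 and 5.07e-07). Cct8 gave -0.77 ± 0.08 and -0.81 ± 0.08 (adjusted p = 1.31e-05 and 1.38e-05). The FPKM of the highest of the 6 member subunits was 3.66 ± 0.0688 times that of the lowest in PBSDC, 4.80 ± 0.212 in ZJDC and 4.28 ± 0.876 in OMVSSDC (SD, n = 3), with 3.85, 3.69 and 5.28 in the OMVSSDC libraries.

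**Figure D4:**
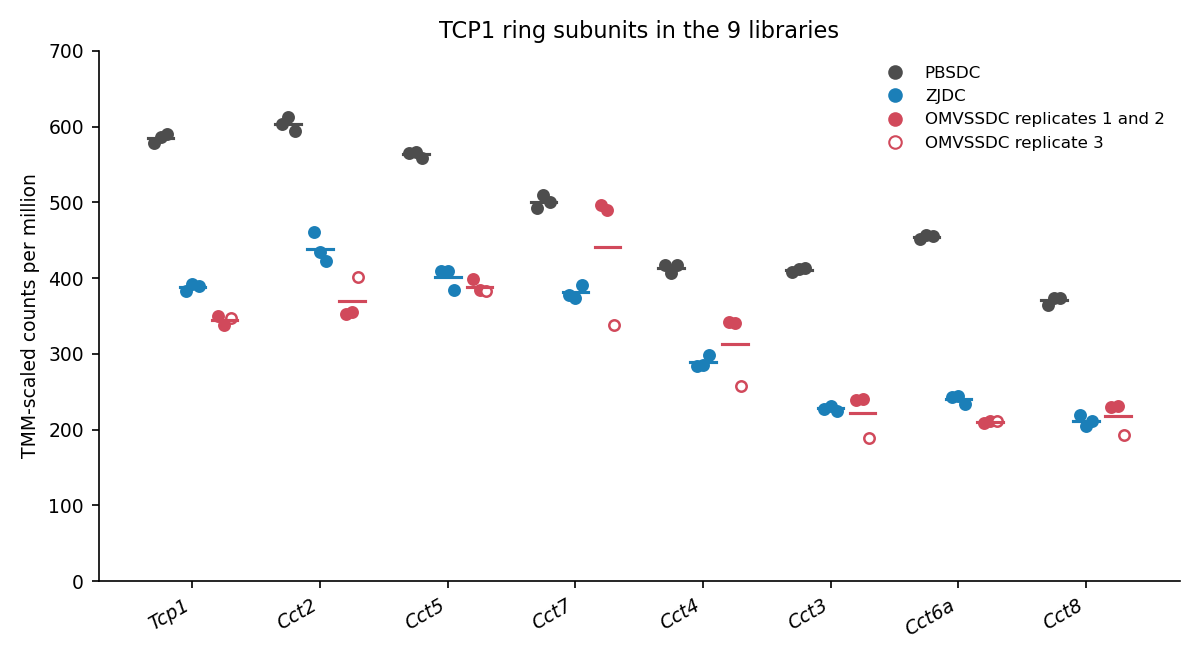
TMM-scaled CPM (vertical axis) of the 6 TCP1 ring subunits of the set and of Cct6a and Cct8 (horizontal axis) in PBSDC, ZJDC and OMVSSDC; points are libraries, bars are means, and OMVSSDC replicate 3 is the open point. The filled OMVSSDC points for Cct7 sit at 490 and 496, among the PBSDC points, while the open point is at 338.

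Among the remaining members, the mitochondrial folding chamber genes fell together. Hspd1, its ring, was at 1113, 1091 and 1120 CPM in PBSDC, 851, 826 and 810 in ZJDC and 747, 744 and 778 in OMVSSDC (-0.55 ± 0.05 and -0.42 ± 0.05, adjusted p = 9.39e-06 and 8.81e-05). Hspe1, its lid, was at 192, 181 and 183 CPM in PBSDC, 149, 142 and 139 in ZJDC and 123, 118 and 137 in OMVSSDC (-0.56 ± 0.07 and -0.37 ± 0.07, adjusted p = 6.36e-05 and 0.00116). For both genes the 3 groups did not overlap and their FPKM ratio stayed between 3.17 and 3.51 in all 9 libraries. In the files' coordinates the genes overlap by 112 bases on chromosome 1, on opposite strands, and the sources used here do not say whether counting used the strand. The same holds for Dnaja1, Dnajc7, Tcp1, Cct7 and Hspa1a, which overlap other genes on the opposite strand.

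The mitochondrial HSP70 gene Hspa9 rose while Hspd1 and Hspe1 fell, in both comparisons. Hsf1, the main heat shock factor, was at 59.4, 58.1 and 56.5 CPM in PBSDC, 54.3, 49.8 and 51.4 in ZJDC and 44.7, 48.7 and 51.8 in OMVSSDC. The test gave -0.26 ± 0.07 in OMVSSDC (adjusted p = 0.0107) and -0.16 ± 0.07 in ZJDC (adjusted p = 0.0871). The OMVSSDC call was lost with library size alone (adjusted p = 0.101), and the value was -0.17 with replicate 3 as the only OMVSSDC library. In ZJDC Hsf1 passed as lower with only the 2 groups in the fit (adjusted p = 0.0305) and without OMVSSDC replicate 3 (0.0203). Hsf2 gave 0.07 ± 0.11 and 0.22 ± 0.11 (adjusted p = 0.618 and 0.112). It passed as higher in ZJDC with only the 2 groups (adjusted p = 0.00374), without OMVSSDC replicate 3 (0.00344) and with library size alone (0.0302). In OMVSSDC the log2 fold change of Hsf2 was 0.31 with replicate 3 alone. Bag3, the HSP70 nucleotide exchange factor of stress-induced autophagy, was at 43.5, 45.9 and 44.1 CPM in PBSDC, 45.5, 39.8 and 43.7 in ZJDC and 30.2, 31.9 and 44.9 in OMVSSDC. Only OMVSSDC replicates 1 and 2 were below the rest, and the value of -0.32 ± 0.14 (adjusted p = 0.0605) became -0.52 (adjusted p = 1.06e-06) without replicate 3; over all libraries it passed with RLE scaling (adjusted p = 0.0478), DESeq2 (0.0368) and limma-voom (0.0413). Hspb1, a small heat shock protein, had 1, 2 and 7 counts in PBSDC, 8, 4 and 7 in ZJDC and 19, 16 and 8 in OMVSSDC, a ratio of summed counts to PBSDC, scaled by library totals, of 4.57 in OMVSSDC (95% exact interval 2.26 to 10.2) and 1.83 in ZJDC (0.810 to 4.41), for counting error only. Of the 10 PBSDC counts 7 were in replicate 3, and without it the ratios were 10.6 (3.40 to 53.5) and 4.26 (1.25 to 22.5).

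Set directly against each other, OMVSSDC and ZJDC differed in 4 members, all lower in OMVSSDC, where 1.95% of all tested genes differed, 1.10% lower and 0.856% higher. Hspa8 was lower by a log2 fold change of -0.69 ± 0.10 (adjusted p = 0.0154), Hsp90aa1 by -0.49 ± 0.08 (0.0281), Hsp90ab1 by -0.49 ± 0.10 (0.0484) and Hsph1 by -0.44 ± 0.07 (0.0281). For these 4 genes every OMVSSDC library was below every ZJDC library, which held for 13 of 31 members and 12.2% of all tested genes; the reverse held for 0 members and 11.7%. Of the 19 co-chaperone, DNAJ and ring members 0 passed with edgeR, while Stip1, Chordc1, Tcp1 and Cct2 passed as lower with DESeq2. DESeq2 called 7.62% of the genes to which it gave an adjusted p lower and 7.47% higher. The same 4 members had an unadjusted p under 0.05 with edgeR, and the share of all genes at that p was not counted. For Cdc37 and Ahsa1 the log2 differences were 0.01 ± 0.05 and 0.03 ± 0.11.

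These 4 calls depended on the libraries and on the fit. With all libraries kept, 0 of the 4 passed with the replicate number as a block (adjusted p = 0.118 to 0.139) or when a fold above 1.2 was asked for (0.181 to 0.357). Without OMVSSDC replicate 1, 2, PBSDC replicate 2 or any one ZJDC library, 0 members passed, and without PBSDC replicate 1 or 3 there was 1. Without OMVSSDC replicate 3 there were 17 lower and 6 higher, where 28% of all tested genes were lower and 27.6% higher. The 6 higher include Hspb1, which was not tested over all libraries. With replicate 3 as the only OMVSSDC library the log2 fold changes of the 4 genes were -0.47 for Hspa8, -0.34 for Hsph1, -0.32 for Hsp90aa1 and -0.23 for Hsp90ab1.

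From a wider list of 81 chaperone genes that are not among the 34, 67 were tested, of which 30 were lower and 13 higher in OMVSSDC than in PBSDC and 28 lower and 9 higher in ZJDC. That is beside 30.2% of all tested genes lower and 33.4% higher in OMVSSDC, and 27.1% and 27.6% in ZJDC. The list's median log2 fold changes were -0.08 and -0.19, nearer to those of all tested genes than the 34 members' medians were. Lonp1, the protease of the mitochondrial matrix, rose from 203, 199 and 205 CPM in PBSDC to 462, 438 and 438 in ZJDC and 547, 521 and 466 in OMVSSDC (1.34 ± 0.07 and 1.14 ± 0.07, adjusted p = 1.69e-07 and 7.46e-07).

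Hscb, a mitochondrial co-chaperone of iron-sulfur cluster assembly, rose in OMVSSDC by 1.16 ± 0.12 (adjusted p = 1.39e-05) and in ZJDC by 0.97 ± 0.12 (adjusted p = 7.03e-05). Of 7 further mitochondrial chaperone genes, these 2 included, 4 were higher and 1 lower in OMVSSDC, and 3 higher and 2 lower in ZJDC, beside the same shares of all tested genes. Nudc, an HSP90 co-chaperone of the nuclear distribution family, fell by 1.12 ± 0.10 on the log2 scale in OMVSSDC and 0.83 ± 0.10 in ZJDC (adjusted p = 5.65e-06 and 6.04e-05). The small heat shock gene Hspb6 was at 8.55, 9.26 and 11.2 CPM in PBSDC, 21.4, 22.7 and 19.8 in ZJDC and 13.3, 13.0 and 26.8 in OMVSSDC, and rose by 1.14 ± 0.26 in ZJDC (adjusted p = 0.00393) and by 0.87 ± 0.26 in OMVSSDC (adjusted p = 0.0143).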

How the data were processed

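RNA from DC2.4 cells was sequenced in 9 libraries, 3 in each of 3 groups taken from the titles. Per the submitters' processing notes, fastp 0.22.0, HISAT2 2.1.0 and HTSeq 0.9.1 were used; their settings, the strand setting, the treatment of reads with several matches and the genome build are not named by any source used here. The deposited table holds the authors' raw counts per gene and their FPKM; each FPKM value equals count over length and library total (100% of values within 0.1%). Gene starts in the table lay within 1000 bases of GRCm38.p6 for only 577 of 21159 genes matched by symbol, so its coordinates and the RefSeq promoters were not combined.

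Counts were tested with edgeR 4.0.16 in R 4.3.3 (filterByExpr with a minimum count of 10, TMM scaling, quasi-likelihood F-test, robust, two-sided, 6 residual degrees of freedom, all 9 libraries), with Benjamini-Hochberg adjustment over 11568 genes and a threshold of 0.05. CPM of the members and the wider list are counts scaled to library size after TMM. CPM of the cell type markers and of the floor use library totals without TMM. Log2 fold changes carry the model's standard error, and FPKM serve only to compare genes. The script was tested on simulated counts. Alternatives were other scalings, filters and tools (DESeq2 1.42.0, limma 3.58.1), a block on the replicate number and leaving out libraries. All 34 members are named; of the wider list, the 2 genes per direction and comparison with the largest change among those that passed, at a mean of at least 5 CPM and with no overlap, and Cct6a and Cct8. The members and lists were chosen with earlier results of these data known. Transcript identity used GENCODE transcripts. Depth sets a floor of 3 counts.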

Additional observations from a re-analysis of the deposited data

How the results depend on the processing

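Across 20 alternative settings, 20 of 25 member calls in OMVSSDC against PBSDC, 19 of 26 in ZJDC against PBSDC and 0 of 4 in OMVSSDC against ZJDC passed under every one, and no called member changed direction. The calls lost under at least 1 setting were Hspa9, Ptges3, Dnaja1, Cct4 and Hsf1 in OMVSSDC against PBSDC, and Hspa8, Fkbp5, Chordc1, Dnaja1, Dnajc7, Cct7 and Hspe1 in ZJDC against PBSDC; each of these was lost when a fold above 1.2 was asked for, and some under other settings too. Of the tested members that did not pass over all libraries, some passed under a setting that kept at least 2 OMVSSDC libraries. They were Bag3 and Dnaja2 in OMVSSDC against PBSDC and Dnajb6, Hsf1 and Hsf2 in ZJDC against PBSDC. In OMVSSDC against ZJDC most such members passed only without OMVSSDC replicate 3, where 28% of all tested genes were lower and 27.6% higher. The counts of calls kept under every setting include the setting with replicate 3 as the only OMVSSDC library, whose spread is taken from the other groups. Scaling by library size alone moved the median of all tested genes in OMVSSDC against PBSDC from 0.05 to 0.18 and the members' median from -0.54 to -0.41. Deviations of same-numbered libraries from their group means correlated at -0.388 to 0.089 over 9 pairs, and the same number correlated best in 3 of 9 sets. OMVSSDC replicate 3 stood apart from replicates 1 and 2, so these correlations cannot tell whether the numbers pair the libraries. With the replicate block 0 members and 0 genes in either direction passed in OMVSSDC against ZJDC, while members lower were 22 in each comparison with PBSDC. In OMVSSDC against ZJDC the genes higher and lower numbered 806 and 838 with DESeq2 (10 members lower), 0 and 0 with only the 2 groups (0 members) and 0 and 2 with the fold of 1.2 (0 members), and 214 were lower with OMVSSDC replicate 3 as the only OMVSSDC library. Leaving out 1 library at a time gave 0 to 3243 genes higher, 0 to 3296 lower, 0 to 6 members higher and 0 to 17 members lower there; the extremes above 0 came without OMVSSDC replicate 3. Members higher numbered 3 to 5 in OMVSSDC and 3 to 6 in ZJDC against PBSDC in the same way. Members higher were 5 in OMVSSDC against PBSDC with no filter and with replicate 3 alone, and 5 in ZJDC against PBSDC with library size alone, with only the 2 groups and without OMVSSDC replicates 1 and 2; genes lower in ZJDC against PBSDC fell to 2079 with the fold of 1.2. The cause of these changes was not tested.

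The sign turned in 40 values. None of the single genes among them passed the threshold, and the group medians carry no p-value. Leaving out 1 library at a time, the values that turned ranged in OMVSSDC against PBSDC from -0.076 to 0.087 for Dnajb6 and from -0.076 to 0.15 for Hsf2. In ZJDC against PBSDC they ranged from -0.018 to 0.049 for Dnaja2, from -0.090 to 0.0046 for Bag3 and from -0.42 to 0.0041 for the HSP70 and HSP110 median, which was above 0 without OMVSSDC replicate 3, where Hspa1b was tested too. In OMVSSDC against ZJDC they ranged from -0.068 to 0.15 for Ahsa1, -0.011 to 0.025 for Cdc37, -0.040 to 0.19 for Ptges3, -0.095 to 0.068 for Cct3, -0.068 to 0.020 for the co-chaperone median and -0.079 to 0.016 for the ring median. Dnajb6 in OMVSSDC against PBSDC was -0.0016 with RLE scaling and with DESeq2, and Cdc37 in OMVSSDC against ZJDC was -0.0044 and -0.0049. With library size alone, Dnaja2 was 0.059 in OMVSSDC against PBSDC, Bag3 was 0.017 in ZJDC against PBSDC, and Cct3, Cct5 and the ring median were 0.032, 0.018 and 0.025 in OMVSSDC against ZJDC. With OMVSSDC replicate 3 as the only OMVSSDC library, Dnaja2 was 0.045 and Bag3 0.0070 against PBSDC. In that setting OMVSSDC against ZJDC gave -0.19 for the co-chaperone median, 0.013 for the DNAJ median, 0.16 for Hspa4l, -0.28 for Ahsa1, -0.011 for Cdc37, -0.21 for Ptges3, -0.19 for Fkbp5, 0.016 for Dnaja2, 0.022 for Dnajb4, 0.027 for Dnajb6, 0.0099 for Dnajc7, -0.18 for Cct4, -0.18 for Cct7, 0.048 for Bag3 and 0.086 for Hsf2. Depth limits Hspa1a, Hspa1b and Hspb1, with at most 19 counts in a library.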
